A study of Mus musculus with 6 samples.

Results

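The cassette exons of the hippocampus were described here by their length, by whether their length divides by 3, and by how often wildtype transcripts included them. A cassette exon is an internal exon that is either kept in the messenger RNA or skipped together with both flanking introns. All 249 cassette exons listed in the authors' deposited table were taken, out of 320 listed splicing events of any type, and they carried 233 gene symbols. They were placed in length classes of up to 27 nt (18 exons), 28 to 60 nt (64), 61 to 150 nt (119) and above 150 nt (48). Length divided by 3 in 138 exons and did not in 111. Wildtype inclusion was below 0.33 in 18 exons, from 0.33 to 0.67 in 96 and above 0.67 in 135.

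Polyadenylated RNA from the hippocampus of 6 male mice at 60 to 70 days of age was sequenced from both ends as 50 bp reads. The Nes-cKO group held 3 mice of genotype Rbfox1 fl/fl; Nes/+, in which Cre recombinase driven by the Nestin promoter removes the floxed part of Rbfox1 in neural progenitors and hence in neurons and in the glia born from the same progenitors. The wildtype group held 3 mice of genotype Rbfox1 fl/fl; +/+, so both groups carried the floxed alleles. The files give 1 value per genotype, not per mouse, so no value below has a replicate error. The exons were selected on the listed inclusion ratios themselves: the table holds only exons with a change above 10 percentage points between these groups. The changes are therefore given as a description with no test.

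Rbfox1 had 23 FPKM in Nes-cKO and 67.5 FPKM in wildtype (q = 0.00152 in the authors' deposited table). FPKM is a transcript level scaled to length and depth, and a value over the whole gene also counts exons outside the deleted part. All 7 hippocampal markers were present in both genotypes, among them Neurod6, of pyramidal neurons, at 81.3 FPKM in Nes-cKO and 97.6 in wildtype, and Prox1, of dentate granule cells, at 11.9 FPKM in Nes-cKO and 10.3 in wildtype. The markers Fibcd1, at 20.8 FPKM in Nes-cKO and 28.6 in wildtype (q = 0.0028), and Spink8, at 14.4 FPKM in Nes-cKO and 20.4 in wildtype (q = 0.0376), were lower in Nes-cKO in the authors' deposited table. Of 10 markers of other cells or neighbouring regions, 8 had q under 0.05 in the authors' deposited table, in both directions. The oligodendrocyte genes Mbp, Mobp and Mal had 679, 36.1 and 45.1 FPKM in Nes-cKO against 1006, 58.9 and 74.0 in wildtype. The cerebellar genes Gabra6 and Cbln3 had 10.5 and 11.4 FPKM in Nes-cKO against 3.51 and 3.98 in wildtype. Of the thalamic genes, Lhx9 and Prkcd had 2.16 and 4.39 FPKM in Nes-cKO against 4.11 and 8.11 in wildtype, and Rora had 1.63 in Nes-cKO and 1.42 in wildtype. Of the choroid plexus genes, Ttr had 7.51 FPKM in Nes-cKO and 12.4 in wildtype, and Kl had 3.64 in Nes-cKO and 3.47 in wildtype. In RNA of a whole tissue, a different mix of cells and a different inclusion within cells cannot be told apart, and the part these markers' cells play in the exon values was not tested.

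Rbfox proteins bind the sequence UGCAUG in pre-messenger RNA, and in many genes binding downstream of an exon favours its inclusion whereas binding upstream favours skipping. Very short exons, called microexons, are a neuronal speciality in vertebrates: they usually keep the reading frame and add a few amino acids at the surface of a protein. An exon whose length divides by 3 can be kept or skipped without shifting the frame, whereas an exon of another length shifts it when it lies in coding sequence. A shifted frame often meets an early stop codon, and transcripts with a stop well upstream of their last exon junction are prone to nonsense-mediated decay.

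Exons of up to 27 nt with large changes, or in known neuronal microexon genes, are shown first where their structure matched an annotated exon, because their whole sequence is short enough to read. Each is given 5′ to 3′ in the sense of the transcript, with the exon in capitals and 12 bases of each neighbouring exon in lower case, as they stand in the spliced messenger RNA. The 3 nt exon of Dock9 had the second greatest change of this class in the junction reads. It had a listed upstream intron of only 4 nt and no such match, and is not shown. The letters come from GENCODE M21 transcripts of GRCm38 whose exon and both introns have exactly the listed lengths on the same chromosome and strand, and the coordinates are those of the authors' table in mm9, counted from base 1.
Prpf18 27 nt exon on the minus strand of chr2:4569143-4569169: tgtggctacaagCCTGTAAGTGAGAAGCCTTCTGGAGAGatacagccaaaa
Commd6 12 nt exon on the minus strand of chr14:102039505-102039516: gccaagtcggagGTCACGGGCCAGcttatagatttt
Dync1i2 18 nt exon on the plus strand of chr2:71065884-71065901: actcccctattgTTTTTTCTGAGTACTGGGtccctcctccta
Eif4g3 21 nt exon on the plus strand of chr4:137651824-137651844: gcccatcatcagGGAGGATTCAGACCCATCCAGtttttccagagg
Plekha5 18 nt exon on the plus strand of chr6:140485527-140485544: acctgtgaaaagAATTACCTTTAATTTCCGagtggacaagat
Ptprf 27 nt exon on the minus strand of chr4:117900424-117900450: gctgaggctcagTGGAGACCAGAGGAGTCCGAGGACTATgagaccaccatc
Cc2d2a 15 nt exon on the plus strand of chr5:44108176-44108190: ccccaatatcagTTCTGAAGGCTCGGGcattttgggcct
Zmynd8 12 nt exon on the minus strand of chr2:165678368-165678379: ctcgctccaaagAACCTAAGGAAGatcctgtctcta
Shank1 24 nt exon on the plus strand of chr7:51599668-51599691: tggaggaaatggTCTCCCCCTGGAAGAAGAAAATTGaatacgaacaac
Nrxn2 27 nt exon on the plus strand of chr19:6488784-6488810: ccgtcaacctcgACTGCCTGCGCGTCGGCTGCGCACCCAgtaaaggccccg

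Exons of 28 to 60 nt with large changes and a matched coding exon, and the 33 nt exon of Ptprf, which has several listed exons, are shown in the same way. Of these, the exons of Camta1 and Camkk2 have lengths that do not divide by 3.
Camta1 31 nt exon on the minus strand of chr4:150445535-150445565: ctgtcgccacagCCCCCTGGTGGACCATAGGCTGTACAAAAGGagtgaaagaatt
Camkk2 43 nt exon on the minus strand of chr5:123186997-123187039: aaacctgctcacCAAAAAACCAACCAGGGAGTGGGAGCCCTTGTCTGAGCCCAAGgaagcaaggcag
Kcnd3 57 nt exon on the plus strand of chr3:105469880-105469936: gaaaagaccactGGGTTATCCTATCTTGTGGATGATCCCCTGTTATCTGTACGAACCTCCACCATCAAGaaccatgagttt
Lrrfip1 39 nt exon on the plus strand of chr1:92978718-92978756: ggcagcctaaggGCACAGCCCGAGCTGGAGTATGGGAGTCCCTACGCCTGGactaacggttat
Ptprf 33 nt exon on the minus strand of chr4:117890617-117890649: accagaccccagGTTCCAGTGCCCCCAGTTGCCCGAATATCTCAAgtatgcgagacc

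Exons of up to 27 nt had the greatest median listed change of the length classes, though not the greatest single one. Inclusion was recomputed from the junction reads as the mean of the 2 inclusion junctions over that mean plus the skipping junction, with 95% Wilson intervals that cover counting error only. The listed change had a median size of 17.95 percentage points in these 18 exons, against 13.2 at 28 to 60 nt, 12.1 at 61 to 150 nt and 11.85 above 150 nt. The 9 exons listed as higher in Nes-cKO were matched by 9 listed as lower.

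Prpf18 encodes a factor of the second step of splicing, and its 27 nt exon had the steepest decrease of any listed exon in the junction reads. The junctions into the exon, out of it and across it held 14, 66 and 76 reads in Nes-cKO against 30, 93 and 20 in wildtype. Inclusion was 34.5% in Nes-cKO (interval 26.5 to 43.5) and 75.6% in wildtype (65.3 to 83.6), so the intervals did not overlap. In GENCODE this exon was found in transcripts without an annotated coding sequence only, and Prpf18 as a whole had 10.9 FPKM in Nes-cKO and 11.4 in wildtype.

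Commd6 encodes a small COMM-domain protein, and its 12 nt exon was included at 45.2% in Nes-cKO (38.2 to 52.3) and 73.3% in wildtype (66.0 to 79.5). Dync1i2, listed under the older symbol Dncic2, encodes an intermediate chain of cytoplasmic dynein, the motor of retrograde transport. Its 18 nt exon was included at 12.2% in Nes-cKO, from 401 reads, and at 35.8% in wildtype, from 296 reads. Both exons were coding, and their intervals lay apart.

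Dock9 activates the GTPase Cdc42 and held the shortest listed exon, of 3 nt, included at 79.3% in Nes-cKO (61.6 to 90.2) and 46.9% in wildtype (33.7 to 60.6). These shares rested on 29 reads in Nes-cKO and 49 in wildtype. The intron listed upstream of it was 4 nt long, and no annotated exon matched its structure. Whether it is an exon of its own was not tested. Plekha5, a protein with a lipid-binding pleckstrin homology domain, included its 18 nt exon at 94.4% in Nes-cKO and 72.4% in wildtype. The 27 nt exon of Ptprf, a receptor phosphatase of the LAR family, was included at 81.8% in Nes-cKO (73.1 to 88.2) and 63.3% in wildtype (50.7 to 74.4), with intervals that overlapped.

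Shank1, a scaffold of the postsynaptic density, included its 24 nt exon rarely: 19.6% in Nes-cKO (15.9 to 23.9) and 10% in wildtype (7.6 to 13.1). The intervals lay apart with 383 reads in Nes-cKO and 460 in wildtype, although the difference was under 10 points. Nrxn2, a presynaptic adhesion protein, had 70.2% for its 27 nt exon in Nes-cKO and 60.5% in wildtype, with overlapping intervals.

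Among the remaining short exons, those of the chromatin reader Zmynd8 (51.8% in Nes-cKO, 35.6% in wildtype), the ciliary gene Cc2d2a (25.7% in Nes-cKO, 8.11% in wildtype), the histone methyltransferase subunit Ash2l (45.3% in Nes-cKO, 34.4% in wildtype) and the actin regulator Carmil1 (42.2% in Nes-cKO, 27.3% in wildtype) were higher in Nes-cKO. Lower in Nes-cKO were those of the translation factor Eif4g3 (65.7% in Nes-cKO, 82.6% in wildtype), the glycolytic regulator Pfkfb3 (41.3% in Nes-cKO, 58.5% in wildtype), the guanine nucleotide exchange factor Arhgef10l (12.1% in Nes-cKO, 28.3% in wildtype), the lipid-binding protein Osbpl6 (66.7% in Nes-cKO, 81.7% in wildtype), the GTPase-activating protein Arhgap21 (48.1% in Nes-cKO, 62.4% in wildtype) and the nuclear receptor Nr4a2 (56.5% in Nes-cKO, 69.2% in wildtype). The intervals of the genotypes overlapped in each of these 10 exons.

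**Figure D1:**
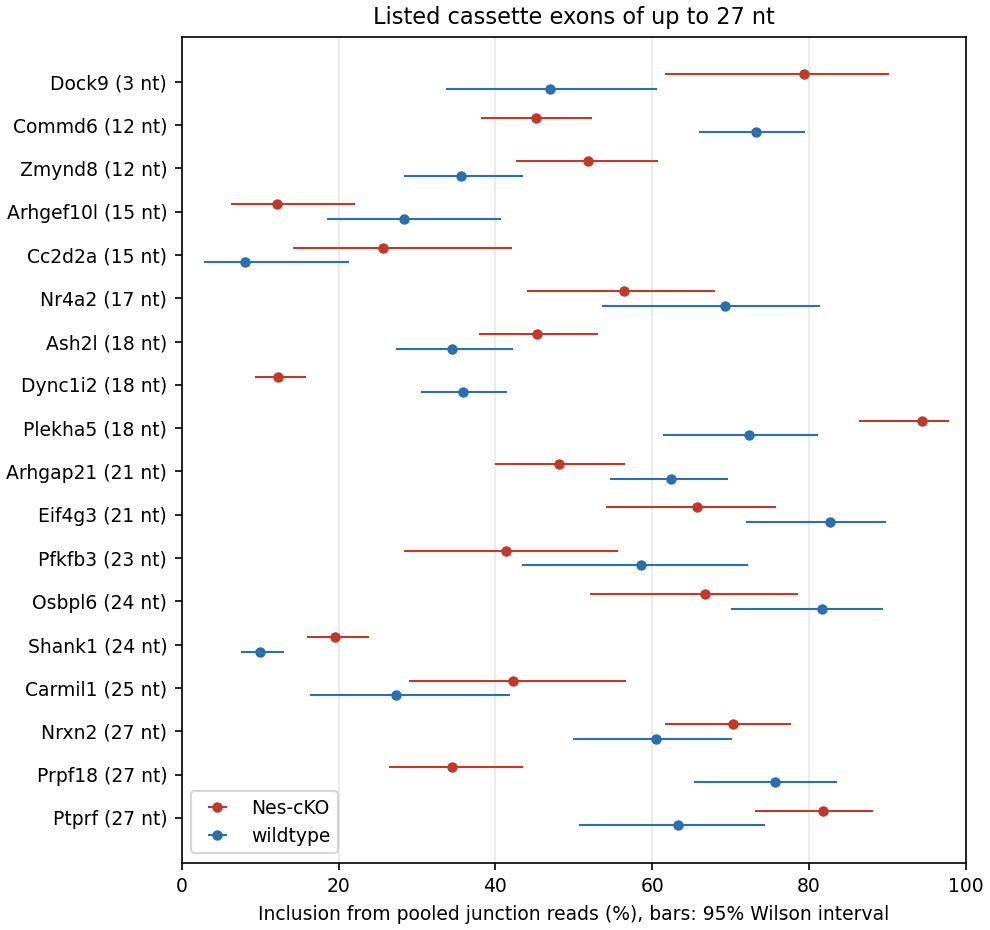
Inclusion of the 18 listed cassette exons of up to 27 nt, in percent of pooled junction reads (horizontal axis), in Nes-cKO (red, upper point of each pair) and wildtype (blue, lower point), with bars for the 95% Wilson interval. The intervals lay apart in 6 exons: Dock9 (with a listed upstream intron of 4 nt), Commd6, Dync1i2, Plekha5, Shank1 and Prpf18.

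Exons of 28 to 60 nt were listed as lower in Nes-cKO more often than as higher, 39 against 25. The same held over all listed exons, 133 against 116. The share higher was 39.1% in this class and 46.6% over all listed exons, a difference that was not tested. For the syntaxin gene Stx3, whose product is a SNARE protein of membrane fusion, the 46 nt exon was included at 39.3% in Nes-cKO (31.9 to 47.3) and 78.8% in wildtype (69.7 to 85.7). In GENCODE the Stx3 exon matched no protein-coding transcript, but it did match one annotated for nonsense-mediated decay. Camkk2, listed as mKIAA0787, encodes a kinase that activates other calmodulin-dependent kinases, and included its 43 nt exon at 58.6% in Nes-cKO (49.3 to 67.3) and 90.1% in wildtype (85.5 to 93.4). Camta1, a calmodulin-binding transcription activator, had the deepest coverage of the 3: its 31 nt exon was included at 9.80% of 561 reads in Nes-cKO and 40.9% of 579 reads in wildtype.

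Kcnd3 encodes the A-type potassium channel Kv4.3, and its 57 nt exon had the largest listed change of all, 46.9 points. The junctions into the exon, out of it and across it held 144, 111 and 10 reads in Nes-cKO against 38, 35 and 30 in wildtype, which gave 92.8% in Nes-cKO and 55.2% in wildtype. Its intervals lay apart, 87.2 to 96.0 in Nes-cKO and 43.4 to 66.5 in wildtype, and the exon keeps the frame.

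The other exons with the greatest increases in this class were those of Oprl1, the nociceptin receptor, and Lrrfip1. Lrrfip1 had 40.0% for its 39 nt exon in Nes-cKO and 19.5% in wildtype, with intervals apart. Oprl1 had 77.8% of 27 reads in Nes-cKO and 53.3% of 30 reads in wildtype for its 34 nt exon, while the authors' deposited table gives 43.1% in Nes-cKO and 28.4% in wildtype. Rbfox genes themselves were among the listed: the 53 nt exon of the Rbfox1 transcripts that remained was included at 34.0% of 297 reads in Nes-cKO and 51.7% of 878 reads in wildtype, and the 40 nt exon of Rbfox2 at 86.7% in Nes-cKO and 75.1% in wildtype.

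Exons of 61 to 150 nt were the largest class, with 64 higher and 55 lower in Nes-cKO. Camk2g, the gamma subunit of the calcium/calmodulin-dependent kinase CaMKII, included its 63 nt exon at 30.8% in Nes-cKO (25.7 to 36.3) and 62.2% in wildtype (56.9 to 67.2). Cttn encodes cortactin, which binds branched actin, and included its 111 nt exon at 57.1% of 429 reads in Nes-cKO and 28.8% of 472 reads in wildtype. Stxbp5l, a tomosyn that binds syntaxins, had 86.2% for its 72 nt exon in Nes-cKO and 61.3% in wildtype. The next in size were Trank1 (86 nt, 35.0% in Nes-cKO, 57.9% in wildtype), the zinc-finger gene Zfp638 (69 nt, 55.6% in Nes-cKO, 77.1% in wildtype) and the Arf GTPase-activating protein gene Agfg1 (118 nt, 82.9% in Nes-cKO, 60.3% in wildtype).

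Among exons above 150 nt, 18 were listed as higher and 30 as lower in Nes-cKO. The elongation factor gene Ell2 had 73.2% of 41 reads for its 260 nt exon in Nes-cKO and 93.9% of 33 reads in wildtype, and these intervals overlapped. Upward, the greatest differences in this class were those of the chromatin remodeller Pbrm1 (156 nt, 57.8% in Nes-cKO, 40.0% in wildtype), the kinase gene Map4k4 (162 nt, 70.5% in Nes-cKO, 56.7% in wildtype) and Slf2 (92.6% in Nes-cKO, 79.7% in wildtype), whose 968 nt exon was the longest listed.

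Ptprf held 4 listed exons, and they went different ways. The exons of 27 and 33 nt were higher in Nes-cKO, that of 33 nt at 77.8% in Nes-cKO and 58.9% in wildtype. The 306 nt exon had 28% in Nes-cKO and 46.8% in wildtype and the 579 nt exon 34.3% in Nes-cKO and 39.0% in wildtype. In all, 12 listed exons overlapped another listed exon, so that such pairs use some of the same reads. The 46 and 62 nt exons of Vps33b, a vesicle-fusion gene, overlapped with opposite changes: 88.1% in Nes-cKO and 98.0% in wildtype for the shorter, and 86.3% in Nes-cKO and 78.6% in wildtype for the longer.

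The length classes also differed in how far the junction reads carried the listed change. Over all 249 exons, 241 moved in the listed direction in the junction reads, and 143 did so by at least 10 points, which is 57.4% of those listed; these exons are called recalled. By class this was 16 of 18 exons up to 27 nt (88.9%), 41 of 64 at 28 to 60 nt (64.1%), 67 of 119 at 61 to 150 nt (56.3%) and 19 of 48 above 150 nt (39.6%). The median listed change fell in the same order, 17.95, 13.2, 12.1 and 11.85 points. A smaller listed change lies nearer the limit of 10 points, and the part of listed size in these shares was not tested. The 95% intervals of the genotypes lay apart in the listed direction in 54 exons, or 21.7% of those listed. In Nes-cKO, 21 of these had the higher inclusion and 33 the lower. These were 6, 24, 22 and 2 exons from the shortest to the longest class. The last class had no exon that was higher in Nes-cKO with intervals apart.

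Depth also differed between the classes. The median number of reads per exon was 85 in Nes-cKO and 72.5 in wildtype up to 27 nt, 113 in Nes-cKO and 109 in wildtype at 28 to 60 nt, 77 in Nes-cKO and 78 in wildtype at 61 to 150 nt, and 75 in Nes-cKO and 75.5 in wildtype above 150 nt. The share of exons with intervals apart was 33.3%, 37.5%, 18.5% and 4.17% from the shortest to the longest class, which is the order of the median reads in Nes-cKO but not in wildtype, and the part of depth in it was not tested. A difference of at least 20 points in the listed direction was found in 26 exons: 5, 11, 8 and 2 from the shortest to the longest class. A difference under 5 points, or against the listed direction, was found in 40 exons: 0, 7, 21 and 12.

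**Figure D2:**
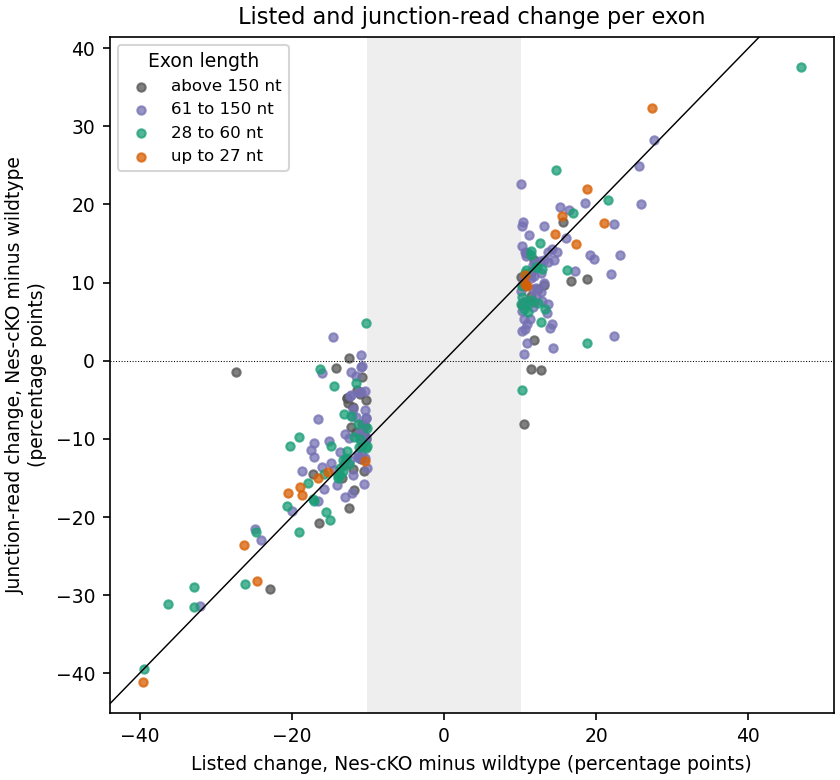
Change of inclusion per exon in percentage points, Nes-cKO minus wildtype, as listed (horizontal axis) and from junction reads (vertical axis), with 1 point per exon, colours for the length classes, a diagonal of equality, and the range below 10 points that the table does not list in grey. Across exons, which are not independent replicates, Pearson's r was 0.992 up to 27 nt and 0.814 above 150 nt, and 8 points lie on the other side of 0 from their listed change.

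The listed inclusion and the junction reads were also offset by an amount that followed exon length. Up to 27 nt the junction reads gave a lower inclusion than listed, with a median gap of -4.10 points in Nes-cKO and -4.90 in wildtype. The gap was 0.53 points in Nes-cKO and 0.10 in wildtype at 28 to 60 nt, 3.79 in Nes-cKO and 4.01 in wildtype at 61 to 150 nt, and 7.92 in Nes-cKO and 5.38 in wildtype above 150 nt. The gap had the same sign in both genotypes in each class, but it was not the same size in both. For exons listed as higher in Nes-cKO its median was 1.60 points in Nes-cKO and 4.28 in wildtype, and for those listed as lower 4.06 in Nes-cKO and 1.49 in wildtype. Over all listed exons the change in the listed direction had a median of 11.1 points in the junction reads and 12.4 points as listed. The listed inclusion ratio is an estimate by SpliceTrap, a program that draws on reads inside exons as well as on junctions. Read coverage inside the exon relative to its neighbours moved in the listed direction in 243 of 249 exons. Reads of both kinds enter the estimate on which the exons were listed, so agreement with it is no independent check.

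**Figure D3:**
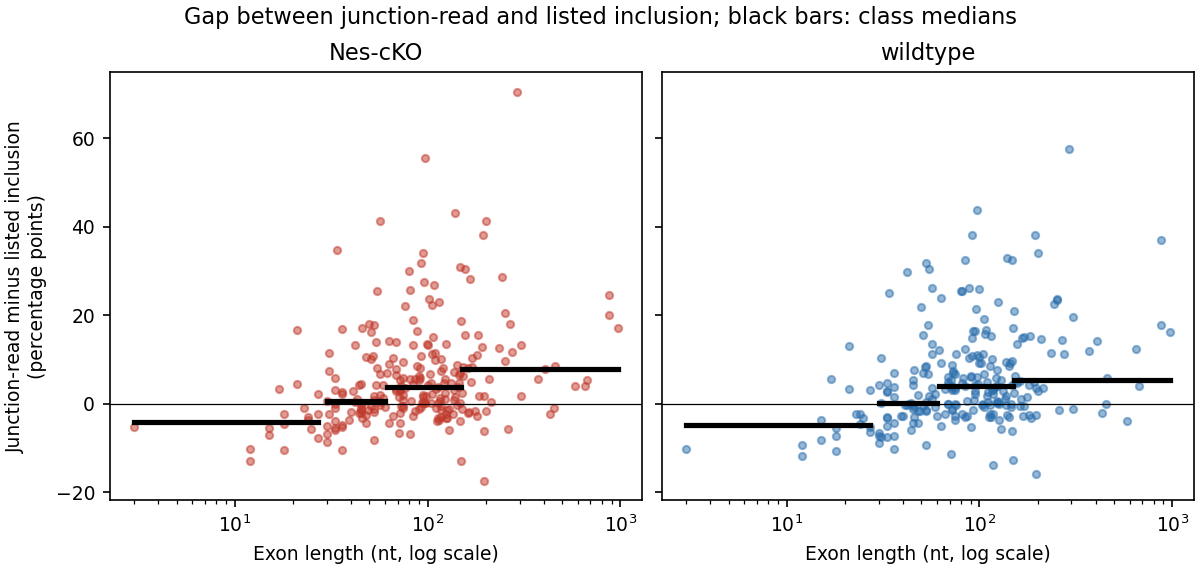
Junction-read inclusion minus listed inclusion in percentage points (vertical axis) against exon length in nt on a log axis, for Nes-cKO (left, red) and wildtype (right, blue), with 1 point per exon and a black bar for the median of each length class. The medians lie below 0 up to 27 nt and above 0 in the other classes in both genotypes.

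Individual exons departed much further. Homer1, a scaffold that links glutamate receptors at synapses, was listed at 65.5% in Nes-cKO and 92.8% in wildtype for its 157 nt exon, but junction reads gave 96.0% in Nes-cKO and 97.5% in wildtype. Its 36 nt exon had junction shares of 94.7% in Nes-cKO and 95.7% in wildtype against listed values of 77.9% in Nes-cKO and 94.2% in wildtype. In 29 of all listed exons the junction reads gave at least 90% in both genotypes. No read crossed the skipping junction in Nes-cKO in 7 exons, all listed as higher in Nes-cKO, and none in wildtype in 2 exons, both listed as lower.

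Of the 8 exons whose junction reads went against the listed direction, 4 did so by at least 2 points. These were the noncoding B130046B21Rik (151 nt, 61.1% in Nes-cKO, 69.2% in wildtype), the elongation factor subunit Eef1d (57 nt, 69.4% in Nes-cKO, 64.6% in wildtype), Prrc2c (53 nt, 58.4% in Nes-cKO, 62.1% in wildtype) and the potassium channel gene Kcnq5 (95 nt, 88.5% in Nes-cKO, 85.4% in wildtype). Their intervals overlapped. At the edge of the listed range, the smallest listed change was 10.1 points, shared for example by Agfg1 (84.3% in Nes-cKO, 74.2% in wildtype) and Taz (72.5% in Nes-cKO, 82.6% in wildtype), and exons under 10 points were not analysed here.

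From here on, exons whose length divides by 3 are called frame-keeping and the others frame-breaking, whether or not they are coding. Exons that keep the frame in this sense of length made up 83.3% of the class up to 27 nt (15 of 18), 60.9% at 28 to 60 nt, 52.1% at 61 to 150 nt and 45.8% above 150 nt. Over all lengths they were 138 of 249 exons, or 55.4%. For comparison, the variable stretch divided by 3 in 20 of 31 listed alternative 3′ splice sites (64.5%) and 24 of 35 alternative 5′ splice sites (68.6%), stretches with median lengths of 24 and 30 nt against 90 nt for cassette exons. The differences between these shares were not tested.

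Direction of change did not divide cleanly by frame. Of the exons that keep the frame, 61 were listed as higher and 77 as lower in Nes-cKO (44.2% higher), and of those that do not, 55 were higher and 56 lower (49.5%). Over all listed exons 46.6% were higher. Within length classes, frame-breaking exons of 28 to 60 nt were 7 higher and 18 lower, and those of 61 to 150 nt were 36 higher and 21 lower. Frame-keeping exons of the same classes were 18 higher and 21 lower, and 28 higher and 34 lower. Junction reads recalled the listed change by at least 10 points in 91 of 138 frame-keeping exons (65.9%) and in 52 of 111 others (46.8%). Frame-keeping exons had median reads of 96.5 in Nes-cKO and 90 in wildtype, against 73 and 69 for the others. Their median length was 72 nt against 103 nt, and their median wildtype junction-read inclusion 72.1% against 84.2%. The part of these in the shares recalled was not tested. Of the 8 exons that went against their listed direction, 6 had lengths that do not divide by 3, among them that of the noncoding B130046B21Rik.

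**Figure D4:**
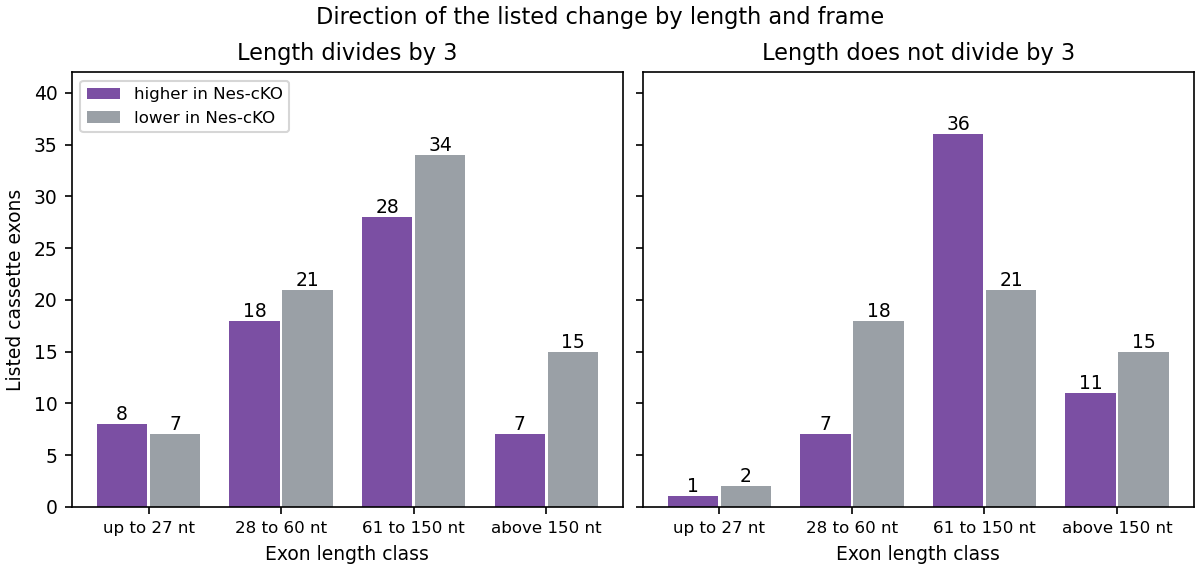
Number of listed cassette exons (vertical axis) that were higher (purple) or lower (grey) in Nes-cKO, by length class, for lengths that divide by 3 (left panel) and those that do not (right panel). Frame-breaking exons of 28 to 60 nt were 7 higher and 18 lower, while those of 61 to 150 nt were 36 higher and 21 lower.

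The exons were also set against the GENCODE annotation. Of the 249 exons, 231 matched a GENCODE exon in structure, and 171 of these (74.0%) were wholly coding in a protein-coding transcript. A further 14 were partly coding, 13 lay in a 5′ UTR and 33 were found in no protein-coding transcript, 19 of them in transcripts annotated for nonsense-mediated decay. Wholly coding exons were 110 of 131 matched frame-keeping exons (84.0%) but 61 of 100 frame-breaking ones (61%). Exons in no protein-coding transcript were 10 of 131 frame-keeping (7.63%) and 23 of 100 frame-breaking ones (23%). The transcript that skips the exon was itself annotated for 153 of the 231, including 15 of 15 matched exons of up to 27 nt.

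For coding exons the reading frame was followed through the annotated transcript with the exon removed. Among 61 frame-breaking coding exons, skipping gave an earlier stop in 51, a later stop in 8 and no stop in 2. In 43 of them the new stop lay over 50 nt before the last exon junction, the distance usually used to predict decay, and these exons were 21 higher and 22 lower in Nes-cKO. Outside these 43 were the exons of Camta1 and Rbfox2, where skipping gave a later stop, and of Camkk2, where the earlier stop did not lie over 50 nt before the last junction. Among 110 frame-keeping coding exons, 103 still reached the annotated stop. Such exons began at the first codon position in 47, the second in 46 and the third in 17.

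The share of exons higher in Nes-cKO differed between classes of listed wildtype inclusion, but this depended on which values set the classes. Among 18 exons below 0.33 in wildtype, 13 were listed as higher and 5 as lower in Nes-cKO. Between 0.33 and 0.67 there were 50 higher and 46 lower, and above 0.67 there were 53 higher and 82 lower. An exon below 0.10 cannot be lower by 10 points and one above 0.90 cannot be higher by 10 points, so part of such an order follows from the listing itself. The share higher in Nes-cKO was 72.2%, 52.1% and 39.3% from the lowest to the highest class by listed wildtype inclusion, a value that the listed direction also rests on. With wildtype inclusion from the junction reads it was 53.3% of 15 exons, 50.7% of 69 and 44.2% of 165. When Nes-cKO inclusion set the classes it was 10.7%, 33.3% and 62.0%, and with the mean of both genotypes 25%, 38.1% and 54.5%, so the order turned round under these last 2 choices.

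Exons of low wildtype inclusion carried their listed change more often in the junction reads. At least 10 points were recalled in 15 of 18 exons below 0.33 (83.3%), 62 of 96 between 0.33 and 0.67 (64.6%) and 66 of 135 above 0.67 (48.9%). The median listed change had the same order, 15.95, 12.65 and 12.1 points. Median reads were 119.5, 91.5 and 75 in Nes-cKO and 108.5, 86 and 79 in wildtype. The part of listed size and of depth in this order was not tested. Intervals lay apart in 8, 23 and 23 exons. The lowest class included Cttn, Lrrfip1, Shank1 and Cc2d2a, all higher in Nes-cKO.

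By function, lists of genes were chosen with earlier results of these data known, and their counts support nothing by themselves. The lists are not complete, and exons of similar genes outside them, such as those of Oprl1 and Kcnq5, are not counted. Over all 249 listed exons, 57.4% were recalled and 55.4% had lengths that divide by 3. A list of 79 known Rbfox targets held 22 listed exons in 16 genes, of which 8 were higher and 14 lower. Of these exons, 18 (81.8%) were recalled and 18 had lengths that divide by 3. A list of 52 genes known for neuronal microexons held 14 exons in 10 genes, 8 higher and 6 lower, all with lengths that divide by 3. Of these, 8 (57.1%) were recalled, a share near that of all listed exons. The list is of genes, and it also held long exons, those of 579 and 306 nt in Ptprf, 306 nt in Ptprs, 135 nt in Asap2 and 99 nt in Ank2. The 4 exons of Ptprf and that of Ank2 are counted among the Rbfox targets too. In a list of 36 kinase and phosphatase genes, 6 genes held 10 exons, 9 of them recalled, and 4 of the 10 lay in Ptprf. In a list of 31 ion channel and receptor genes, 5 genes held 1 exon each, of which that in Kcnd3 was higher. Listed as lower were, among others, the calcium-release channel Itpr1 (75% in Nes-cKO, 89.7% in wildtype), the sodium channel Scn8a (89.0% in Nes-cKO, 98.7% in wildtype) and the calcium channel Cacna1a. The junction reads of Cacna1a gave 96.9% in Nes-cKO and 96.1% in wildtype. A list of 40 RNA-binding regulators of splicing held 4 exons, all recalled: those of Prpf18 and Rbfox1 were lower, and those of Rbfox2 and Mbnl2 (91.9% in Nes-cKO, 80.2% in wildtype) were higher. A list of 36 synaptic genes, of vesicles, SNAREs and postsynaptic scaffolds such as Homer1 and Shank1, held 8 exons, 4 of them recalled. A list of 44 cytoskeleton and motor genes held 9 exons, 6 of them recalled.

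The transcript level of the host genes took no part in choosing the exons, and the share of host genes with a changed level lay near that of all genes. Of 230 host genes with a test and an FPKM of at least 1, 17 had q under 0.05 in the authors' deposited table (7.39%), against 7.1% of 12685 genes over the whole table. Of these 17, 12 had more transcript and 5 less in Nes-cKO, against 4.69% higher and 2.41% lower over the whole table. By length class the host genes with q under 0.05 were 3 of 18, 9 of 63, 3 of 115 and 6 of 44. By frame they were 9 of 129 for exons that keep it and 9 of 103 for those that do not. A gene with listed exons in several classes, such as Ptprf or Homer1, counts in each, so these counts add up to more than 17. The floxed gene Rbfox1 is itself among the 17.

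The host genes with the lowest ratios were Rbfox1, at -1.56 on the log2 scale (Nes-cKO over wildtype), the clock gene Per3 at -0.80, Camkk2 at -0.75 and Bcas1 at -0.57, all with q = 0.00152 in the authors' deposited table. Per3 included its 151 nt exon at 97.0% in Nes-cKO and 87.3% in wildtype. Bcas1, a gene of oligodendrocytes, had 29.7 FPKM in Nes-cKO and 44.1 in wildtype, beside Mbp, Mobp and Mal, which were also lower in Nes-cKO. Its 42 nt exon was listed at 79.4% in Nes-cKO and 60.6% in wildtype, while junction reads gave 92.6% in Nes-cKO and 90.3% in wildtype.

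The highest ratios were those of Homer1 (0.97, q = 0.00280 in the authors' deposited table), the membrane progestin receptor gene Paqr6 (0.63, q = 0.00152), the spine-apparatus gene Synpo (0.59, q = 0.00152) and the plasma membrane calcium pump gene Atp2b4 (0.55, q = 0.00152). Paqr6 included its 405 nt exon at 97.2% in Nes-cKO and 87.0% in wildtype, Synpo its 91 nt 5′ UTR exon at 58.9% in Nes-cKO and 41.4% in wildtype, and Atp2b4 its 191 nt exon at 92.6% in Nes-cKO and 97.4% in wildtype. Besides Camkk2, the genes Stx3 and Kcnd3 had both a steep exon change and q under 0.05. Stx3 had 19.1 FPKM in Nes-cKO and 14.1 in wildtype, and Kcnd3 had 18.1 in Nes-cKO and 13.5 in wildtype.

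**Figure D5:**
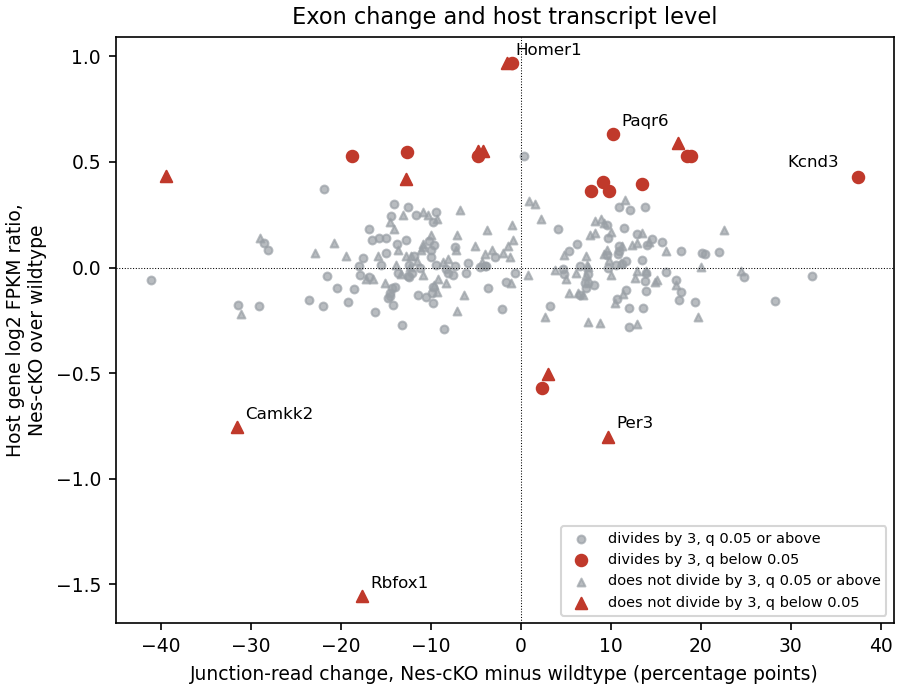
Host gene log2 FPKM ratio, Nes-cKO over wildtype (vertical axis), against the junction-read change of inclusion in percentage points (horizontal axis), with circles for lengths that divide by 3, triangles for others and red for q under 0.05. Each point is an exon, so a gene with several listed exons appears several times, and most points lie near a ratio of 0. Among the steepest changes, Stx3, Kcnd3 and Camkk2 had ratios of 0.43, 0.43 and -0.75, all with q under 0.05. Prpf18, Dock9, Camk2g and Camta1 had -0.06, -0.04, -0.18 and -0.22, with q above it.

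Host level was also set beside the predicted fate of the skipped transcript. For the 22 genes whose exon gives a stop over 50 nt before the last junction when skipped and was listed as lower in Nes-cKO, 17 had a ratio above 0, with a median log2 ratio of 0.09, and 2 had q under 0.05. For the 21 such genes whose exon was higher, 11 had a ratio above 0, the median was below 0.01 and none had q under 0.05. Over all 12685 genes compared, the median was 0.03 and 7313 had a ratio above 0. Of the 43 exons with such a stop, 15 were recalled, against 143 of all 249 listed. The 2 genes with q under 0.05 were Homer1, at 0.97, and Kcnq5, at -0.50. Junction reads gave 96.0% in Nes-cKO and 97.5% in wildtype for the 157 nt exon of Homer1. For the 95 nt exon of Kcnq5 they gave 88.5% in Nes-cKO and 85.4% in wildtype, against the listed direction. The differences between these counts and medians were not tested, and they are given as values only.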

How the data were processed

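Transcripts and splicing were measured in hippocampal RNA of 3 Nes-cKO and 3 wildtype mice, and 1 value per genotype was analysed. Per the submitters' processing notes, the build was mm9 and the tools included Cuffdiff, Cufflinks and CASAVA, with no version stated. The aligner was not given in these sources. The deposited gene table holds FPKM per genotype with p-values and q-values by the authors, and 14964 of 23235 genes had a test. The deposited cassette table holds, per the file headers, a SpliceTrap inclusion ratio (a fraction from 0 to 1), whole read counts at 3 junctions, read coverage of the exons as a signal, and exon and intron lengths in nt. The authors listed exons that differed by more than 10 percentage points. The suffix .y was read as Nes-cKO and .x as wildtype. Library totals are unknown. Exons had 18 to 1291 junction reads in Nes-cKO and 13 to 1411 in wildtype, with a median of 83 in each.

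Inclusion reads were the rounded mean of the 2 inclusion junctions. Wilson intervals at the 95% level cover counting error only. The deposited p-values of the exons were not used, and no test was run, because the exons were listed by this contrast. Host genes were matched by symbol, 238 of 249 exons directly and 248 with synonyms, and used where the authors' FPKM reached 1 in either genotype, at a q-value limit of 0.05 as the authors deposited it. Sequences and coding annotation came from GENCODE M21 by exact match of exon and intron lengths, with no conversion of coordinates. A search for Rbfox motifs in introns was provided for but not run, since it needs a genome of the files' build.

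The members, classes and gene lists were chosen with earlier results of these data known. Named exons are, per length class, the 3 greatest junction-read decreases and increases with at least 20 reads in each genotype, exons at least 2 points against their listed direction, genes with at least 3 listed exons, up to 12 exons of Rbfox target and microexon genes, the shortest and longest exon, and the 4 host genes each way with the greatest change past the threshold. Not every exon so chosen is reported here. Any other exon or gene was picked with its values in view. Other thresholds, class limits and junction choices were tried as alternatives. The recomputation was tested on simulated data. Python 3.11.15, numpy 2.4.6, pandas 2.3.3, scipy 1.17.1 and matplotlib 3.10.9 were used.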

Additional observations from a re-analysis of the deposited data

How the results depend on the processing

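Of 72 alternatives tried over 18 results, 62 left the value within the exact 95% interval of the reported one, and 10 did not. These intervals treat exons as independent and are wide in small classes, so a value within one can still differ much. Below 0.33 the interval ran from 46.5% to 90.3%, and it held the 53.3% found with wildtype inclusion from the junction reads. The share of exons recalled from junction reads, 57.4%, was 67.1% with the lower of the inclusion junctions, 83.9% at 5 points and 23.7% at 15 points. The share higher in Nes-cKO below 0.33, 72.2% as reported, was 100% with limits of 0.25 and 0.75, 10.7% by Nes-cKO inclusion and 25% by the mean of both genotypes. At 0.33 to 0.67, 52.1% as reported, it was 33.3% by Nes-cKO inclusion and 38.1% by the mean. Above 0.67, 39.3% as reported, it was 62.0% by Nes-cKO inclusion and 54.5% by the mean. Classing by Nes-cKO inclusion and leaving out overlapping exons were chosen after seeing the data. The direction by length and by frame stayed within its interval under each alternative run.

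No paired analysis was possible because the files hold 1 value per genotype, and leaving out each replicate was not run for the same reason. With a median of 83 reads per genotype, the counting intervals of the genotypes lay apart in 54 of 249 exons, and variation between mice was not covered.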
